A study of Mus musculus with 12 samples.

Results

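The miRNAs miR-188, miR-362, miR-500, miR-501, miR-532 and miR-660 are named here as one cluster. In mouse the chloride transporter gene Clcn5 hosts 5 of them, and no miR-660 hairpin was found in the mouse annotation used. Every assay of the 6 named hairpins in the deposited table was taken, by miRNA name and for either arm, which gave 8 of 517 miRNA assays. Of these, 2 were for miR-188, 1 for miR-362, 1 for miR-500, 2 for miR-501, 2 for miR-532 and 0 for miR-660. The members were chosen by hairpin name, but the cluster as a whole was put forward with its ligated against control differences in these data known, which is the measured value that stands behind the choice. The differences between the groups are therefore given as a description and no p-value is read from them. Levels were measured by quantitative PCR in 6 partially ligated left carotid arteries and 6 untreated right carotid arteries. All came from female apoE-/- mice, which develop atherosclerosis on a fatty diet, aged 6 to 8 weeks by the labels. The external and internal carotid and the occipital artery on the left had been tied off, which left the superior thyroid artery as the main outflow. After the operation the mice ate a diet for 6 weeks that held 19.5% casein, 21% crude fat and, as cholesterol, 0.15%, so both groups share the genotype and the diet. The series text counts 6 mice, and which left and right artery came from the same animal is not given.

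A miRNA is cut from a hairpin transcript and guides the silencing of messenger RNAs that pair with its seed, bases 2 to 8 from its 5′ end. Hairpins that lie close together on one strand are often made from one long transcript, and each hairpin can yield a 5p and a 3p arm that are kept in unequal amounts. Clcn5 encodes ClC-5, an endosomal chloride and proton exchanger known best from the kidney proximal tubule. Its own messenger RNA was not measured here.

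In the RefSeq annotation of mouse build GRCm38.p6, Clcn5 runs from 7153810 to 7319358 on the X chromosome and contains 5 miRNA hairpins, all of them members and all on the minus strand. In the direction of transcription they are Mir532 (chrX:7248402-7248497), Mir188 (chrX:7247989-7248056), Mir362 (chrX:7241982-7242046), Mir501 (chrX:7241243-7241351) and Mir500 (chrX:7237683-7237774). They span 10815 bases. Mir532 and Mir188 are 345 bases apart, Mir188 and Mir362 5942 bases, Mir362 and Mir501 630 bases, and Mir501 and Mir500 3468 bases. RefSeq lists 2 start sites of Clcn5, at 7319358 and 7188714. The hairpins lie downstream of the first, with Mir532 70861 bases from it, and upstream of the second. The table used gives gene bounds and no exons, so the position of a hairpin in an intron is background and was not checked.

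The mature sequences from RefSeq (GRCm38.p6) are shown because shared seeds and near-identical arms bear on what each assay can tell apart. Of the 8 assays, 6 had a sequence of the same name. Capitals mark the seed.
miR-532-3p: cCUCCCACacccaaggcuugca
miR-188-5p: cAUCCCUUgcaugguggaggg
miR-188-3p: cUCCCACAugcaggguuugca
miR-362-3p: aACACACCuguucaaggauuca
miR-501-5p: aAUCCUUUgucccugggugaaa
miR-501-3p: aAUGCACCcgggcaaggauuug
miR-500-5p: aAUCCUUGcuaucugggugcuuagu
miR-500-3p: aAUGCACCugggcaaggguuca
The assay named miR-500 carries no arm in its label, so both arms of that hairpin are listed. miR-500-3p and miR-501-3p share the seed AUGCACC and are identical at 18 of 22 positions. Counted from 1 at the 5′ end, with the base of miR-500-3p first, they differ by U9C, G18A, C21U and A22G. miR-362-3p is identical to miR-500-3p at 17 of 22 positions and to miR-501-3p at 15 of 22, but its seed ACACACC is its own within the cluster. How far the assays cross-react was not tested. miR-532-5p is named only.

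The unit of the raw table is the threshold cycle (Ct), the PCR cycle at which the product passes a set brightness. Ct falls as RNA rises, and 40 marks wells without amplification. A well was called detected at a Ct below 35. Levels are log2 values, each sample's mean Ct over the 283 miRNAs detected in all 12 samples minus the assay's Ct, so that 1 unit is 2-fold where the product doubles with each cycle. That mean ran from 23.33 to 25.20 cycles in ligated and from 24.45 to 26.43 in control arteries, with 330 to 357 and 317 to 341 assays detected. In both groups, samples with the numbers 1 to 3 differed from samples with the numbers 4 to 6, and results are also given within these sets. As markers of a vessel wall, miR-143 and miR-145 of smooth muscle and both arms of the endothelial miR-126 were detected in all 12 samples.

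The 5 cluster miRNAs that were detected in every sample had higher mean levels in ligated arteries. miR-532-5p, miR-532-3p, miR-188-5p, miR-362-3p and miR-500 differed by 0.34 to 0.80 on the log2 scale, or 1.27-fold to 1.74-fold. miR-501-3p amplified in 5 of 6 ligated arteries and in 0 of 6 control arteries. miR-188-3p, the second arm of its hairpin, amplified in none of the 12. The median difference of the 5 was 0.61, against -0.05 over all 339 assays tested, of which 162, or 47.8%, had a higher mean in ligated arteries. In limma's moderated test over the 339 assays with Benjamini-Hochberg adjustment, 7.37% of all assays were called higher and 5.01% lower. Of the 7 members that entered it, miR-501-3p passed as higher, and miR-501-5p and the 5 above did not pass. Nothing is read from that call, since miR-501-3p entered the test only through the ligated arteries and the members were picked with the contrast known. In whole arteries more cells of a type and more RNA per cell cannot be told apart.

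**Figure D1:**
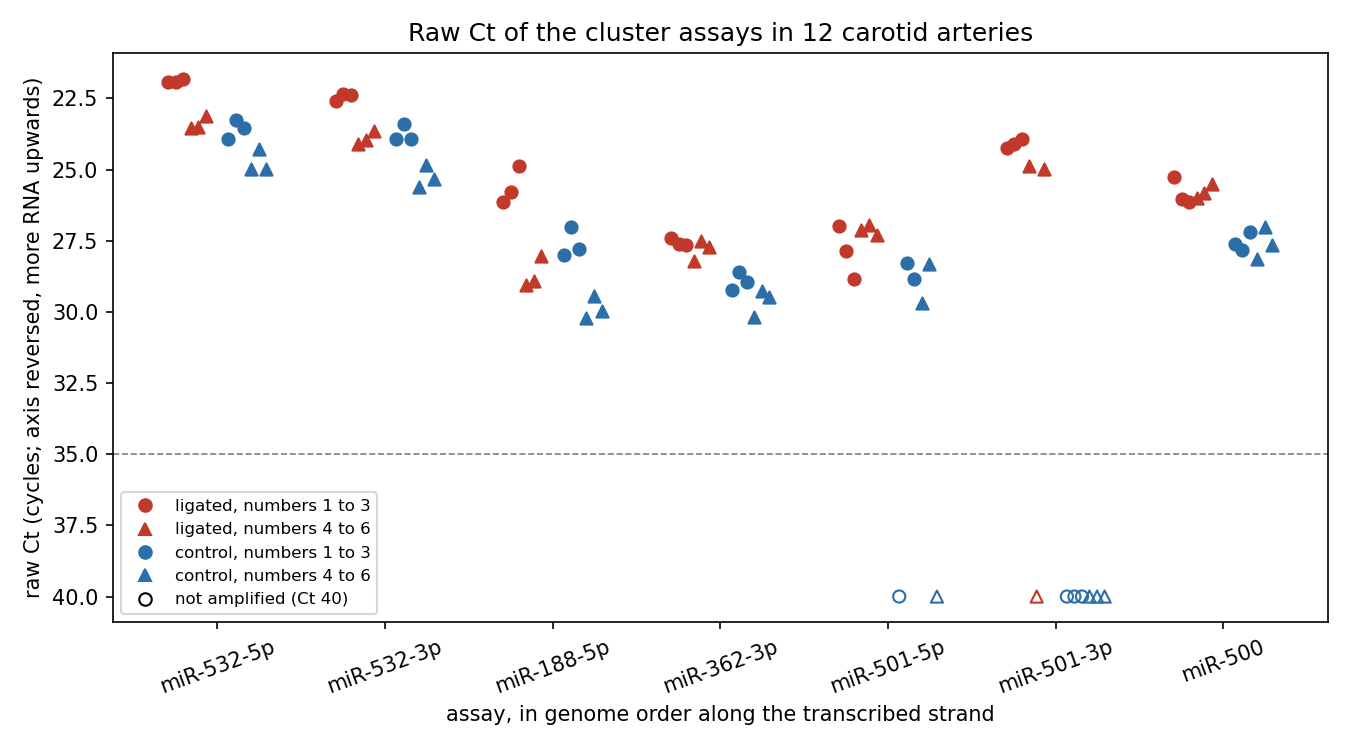
Raw Ct (cycles, axis reversed so that more RNA is higher) of the 7 tested assays in 12 arteries, with ligated arteries in red to the left of control arteries in blue. Circles are numbers 1 to 3, triangles numbers 4 to 6, open symbols wells at 40, and the dashed line the detection limit of 35. miR-501-3p has 5 amplified wells between 23.940 and 24.997, all in ligated arteries, and 7 wells at 40.

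miR-532 is the first hairpin of the cluster and both its arms were the most abundant members. miR-532-5p had levels of 1.41, 2.26 and 2.23 in ligated arteries 1 to 3 and 1.68, 1.52 and 1.90 in ligated arteries 4 to 6. Control arteries had 1.07, 1.19 and 1.49 and then 1.45, 1.37 and 1.19. Ligated 1 lay within the control range and the other 5 ligated arteries lay above it. The means were 1.83 ± 0.36 (SD, n = 6) in ligated and 1.29 ± 0.17 (SD, n = 6) in control arteries, a log2 difference of 0.54 ± 0.21 (SE), or 1.45-fold. Ligated exceeded control in 6 of 6 same-numbered pairs.

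The opposite arm, miR-532-3p, differed less. Its levels ran from 0.73 to 1.83 in ligated and from 0.80 to 1.13 in control arteries, with means of 1.29 ± 0.41 (SD, n = 6) and 0.95 ± 0.15 (SD, n = 6). The log2 difference was 0.34 ± 0.22 (SE), and ligated 1, with the lowest value of all 12, was below its same-numbered control by 0.33. Within a sample, the 3p arm lay below the 5p arm in all 12 arteries, by a mean level difference of -0.54 ± 0.09 (SD, n = 6) in ligated and -0.35 ± 0.24 (SD, n = 6) in control arteries. The ligated values of this arm difference, from -0.67 to -0.43, fell inside the control range of -0.64 to -0.01 in all but ligated 1. As the arms are read by different assays, their order also holds the efficiency of each assay.

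miR-188-5p, from a hairpin known in mouse bone marrow for a role in the choice between bone and fat cell fates, had the largest spread of the 5 members detected everywhere in ligated arteries, while in control arteries miR-500 did. Ligated arteries 1 to 3 had levels of -2.80, -1.58 and -0.82, and control arteries 1 to 3 had -3.03, -2.58 and -2.76. Ligated arteries 4 to 6 had -3.86, -3.89 and -3.04, and all 3 control arteries of that set had -3.80. The groups overlapped, and the higher ligated values were those of ligated 2 and ligated 3. The log2 difference was 0.63 ± 0.53 (SE), with means of -2.67 ± 1.24 (SD, n = 6) in ligated and -3.30 ± 0.57 (SD, n = 6) in control arteries. It was 0.26 without ligated 3 and 0.41 without ligated 2.

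miR-362-3p was higher in ligated arteries in 6 of 6 same-numbered pairs, by 0.19 to 1.11. Its levels were -4.07, -3.44 and -3.59 in ligated arteries 1 to 3, against -4.25, -4.15 and -3.90 in control arteries 1 to 3. In numbers 4 to 6 they were -3.0, -2.5 and -2.7 in ligated and -3.76, -3.61 and -3.31 in control arteries. The groups did not overlap in numbers 4 to 6, while ligated 1 lay among the controls of its set. The means were -3.22 ± 0.59 (SD, n = 6) in ligated and -3.83 ± 0.35 (SD, n = 6) in control arteries, a log2 difference of 0.61 ± 0.30 (SE), or 1.53-fold.

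miR-500, the last hairpin of the cluster, had a log2 difference of 0.80 over all 12 arteries and of 0.55 to 0.96 when 1 sample was left out. Ligated arteries 1 to 3 had levels of -1.93, -1.84 and -2.11, and control arteries 1 to 3 had -2.63, -3.38 and -2.16. Ligated arteries 4 to 6 had -0.81, -0.79 and -0.49, and control arteries 4 to 6 had -1.70, -1.36 and -1.51. The groups separated within each set, by 0.05 at the nearest point in numbers 1 to 3, yet overlapped when the sets were put together. The means were -1.33 ± 0.71 (SD, n = 6) in ligated and -2.12 ± 0.77 (SD, n = 6) in control arteries, a difference with an SE of 0.42, or 1.74-fold. Ligated exceeded control in 6 of 6 same-numbered pairs, by 0.05 to 1.55.

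**Figure D2:**
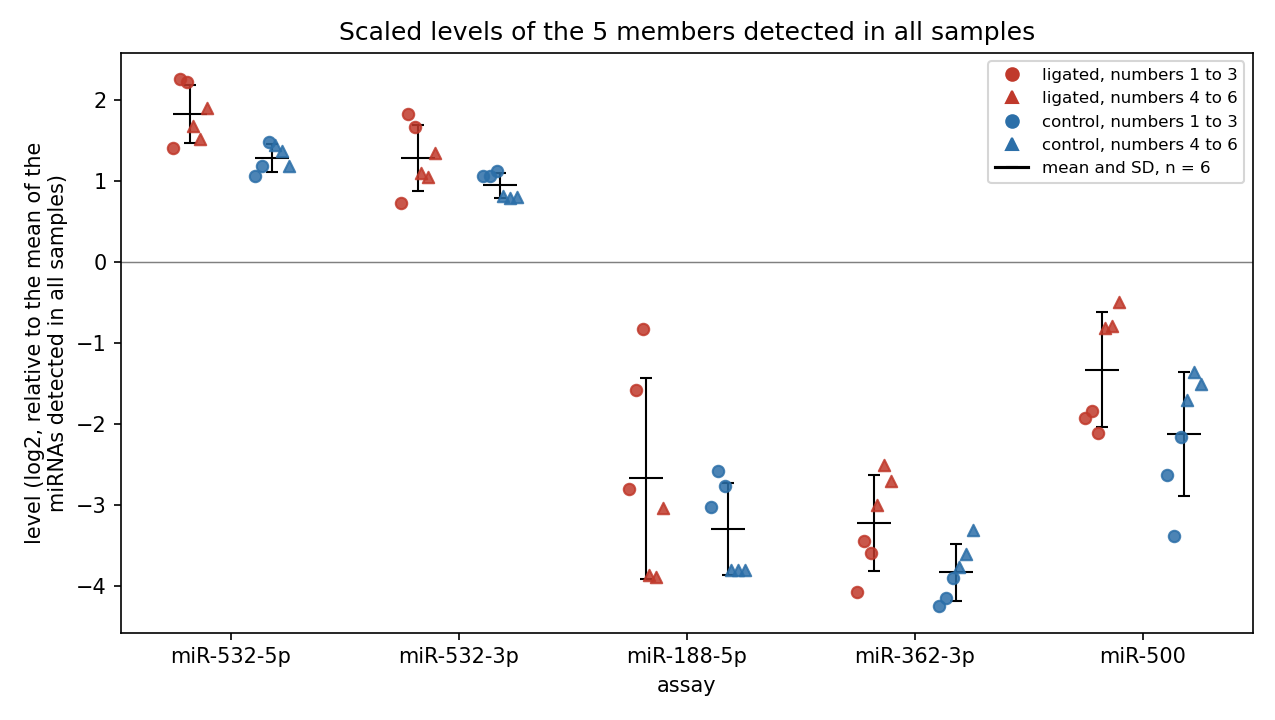
Scaled levels (log2, with the average of miRNAs detected in all samples at 0) of the 5 members detected in every artery, with ligated arteries in red to the left of control arteries in blue. Circles are numbers 1 to 3 and triangles numbers 4 to 6, and bars show the mean and SD of 6. All 5 means are higher in ligated arteries, from 0.34 for miR-532-3p to 0.80 for miR-500, and the groups overlap for each.

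miR-501-3p, an arm known from mouse muscle satellite cells and from rodent neurons, was either amplified early or not at all. Its Ct was 24.228, 24.103, 23.940, 24.863 and 24.997 in ligated arteries 1, 2, 3, 4 and 6, and 40 in ligated 5 and in all 6 control arteries. No well lay between 24.997 and 40. The lowest amplified ligated level, -0.90, lay 7.67 above the highest level that a Ct at the limit of 35 would stand for in a control artery, -8.57. The fitted difference of 7.83 ± 1.55 (SE) ranked 1 of 339, but this size is set by the Ct assigned to undetected wells, and it is no lower bound because ligated 5 was undetected too. It was 9.48 without ligated 5. It was 5.71 ± 2.88 (SE) within numbers 4 to 6.

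The opposite arm in the same arteries gave smaller differences. miR-501-5p was detected in 6 of 6 ligated and 4 of 6 control arteries, with wells at 40 in control 1 and control 6. Its Ct in ligated 5, where miR-501-3p did not amplify, was 26.93, the lowest of all 12. Among detected wells its levels ran from -4.80 to -1.91 in ligated and from -3.82 to -2.65 in control arteries, with means of -3.04 ± 1.18 (SD, n = 6) and -3.38 ± 0.56 (SD, n = 4). These means differ by 0.34, whereas the fit with undetected wells set to 35 gave 2.36 ± 1.28 (SE), so most of the fitted difference comes from control 1 and control 6. The fitted value was 1.43 to 2.91 when 1 sample was left out.

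In the 5 ligated arteries where both arms of miR-501 amplified, the 3p arm stood 2.25 to 4.91 above the 5p arm on the log2 scale. In the control arteries that had miR-501-5p, the 3p arm was at 40. An all-or-none pattern of this kind was seen in other assays. Of 119 assays with some wells at 40, 8 had every amplified well at or below a Ct of 25, a limit chosen after the values were seen, and these were miR-501-3p, miR-150*, miR-199a-5p, miR-23a, miR-297a*, miR-425, miR-466d-3p and miR-696. In the other 7 the wells at 40 were spread over the groups in different ways. They were 2 ligated and 2 control arteries for miR-199a-5p and miR-466d-3p, and 5 ligated and 3 control arteries for miR-23a. For miR-297a* and miR-696 they were 4 ligated and all 6 control arteries, so these too amplified only in ligated arteries. miR-425 had 1 well at 40, in a control artery, and miR-150* had 11, in 6 ligated and 5 control arteries. miR-501-3p was the only one of the 119 that amplified in at least 5 ligated and in 0 control arteries. Whether a well at 40 held little RNA or was a failed reaction was not tested.

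Over the members detected in all samples the order of mean levels was the same in ligated and control arteries: miR-532-5p, miR-532-3p, miR-500, miR-188-5p and miR-362-3p. miR-532-5p stood above miR-532-3p in every sample, and miR-532-3p stood above miR-500 in every sample, by a mean of 2.62 ± 0.91 (SD, n = 6) in ligated and 3.07 ± 0.90 (SD, n = 6) in control arteries. The order of the other 3 depended on the number set. miR-500 and miR-188-5p had gaps of 1.34 ± 1.85 (SD, n = 6) in ligated and 1.17 ± 1.31 (SD, n = 6) in control arteries. miR-500 was the higher in every artery numbered 4 to 6, while in numbers 1 to 3 the order varied. miR-188-5p and miR-362-3p had gaps of 0.55 ± 1.66 (SD, n = 6) and 0.53 ± 0.88 (SD, n = 6), and each was the higher in 3 of 6 arteries of either group. miR-188-5p was the higher in every artery numbered 1 to 3 and miR-362-3p in every artery numbered 4 to 6. In percentiles of the assays tested, the members ran in control arteries from 23.3 for miR-362-3p to 69.6 for miR-532-5p, leaving out miR-501. Levels of different assays also hold the efficiency of each assay.

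The members did not move together between the number sets. miR-500 was higher in numbers 4 to 6 than in numbers 1 to 3 by 1.26 in ligated and 1.20 in control arteries, and miR-362-3p by 0.97 and 0.54, with no overlap between the sets. miR-188-5p went the opposite way, with -1.86 in ligated and -1.01 in control arteries, again with no overlap. The arms of miR-532 differed between the sets by -0.28 to 0.08. Over all 339 assays tested the median absolute shift between the sets was 0.90, and 46.3% shifted by more than 1. What the sets stand for is not stated in the labels, and the cause of the shifts was not tested.

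**Figure D3:**
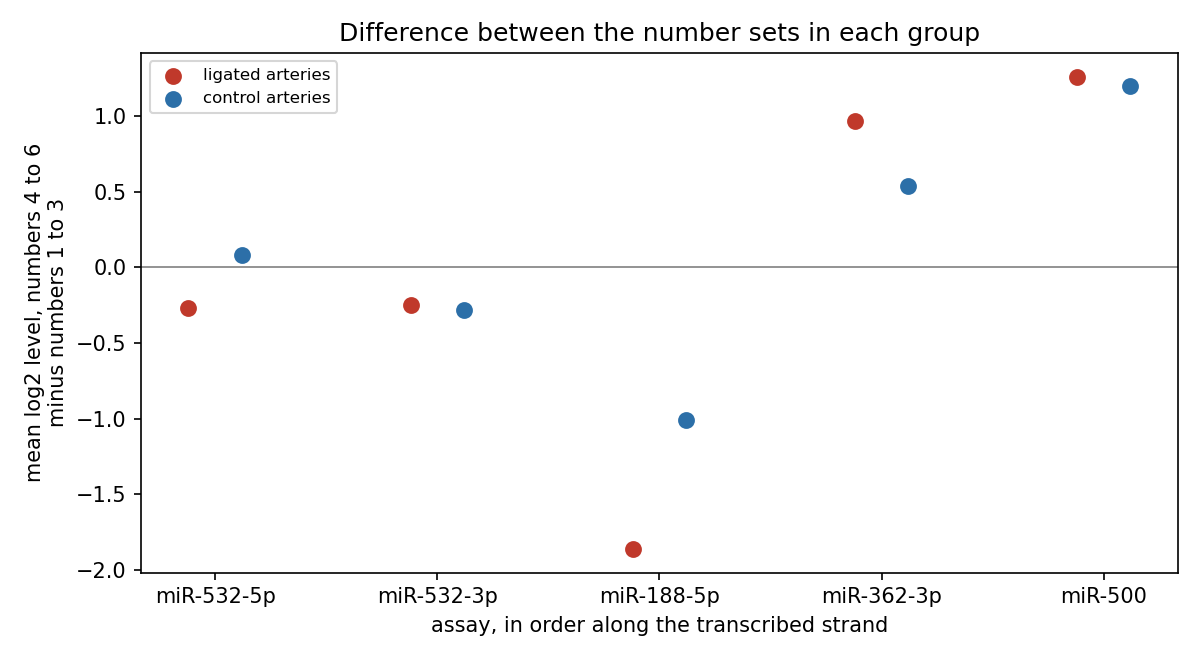
Mean log2 level in numbers 4 to 6 minus that in numbers 1 to 3, for the 5 members detected in every artery, with ligated arteries in red to the left of control arteries in blue (3 samples in each mean). miR-188-5p lies below 0 in both groups, at -1.86 and -1.01, while miR-362-3p and miR-500 lie above 0 in both, from 0.54 to 1.26.

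Within the sets the ligated against control differences kept their sign for all 7 members tested. Both sets are parts of the contrast that was known when the cluster was chosen, so nothing is read from these signs. Within numbers 1 to 3 and numbers 4 to 6 the differences were 0.71 and 0.36 for miR-532-5p, 0.33 and 0.36 for miR-532-3p, and 1.06 and 0.20 for miR-188-5p. They were 0.40 and 0.83 for miR-362-3p and 0.77 and 0.83 for miR-500. With undetected wells at 35 they were 9.94 and 5.71 for miR-501-3p and 1.83 and 2.88 for miR-501-5p. The sets were compared by limma's interaction term over all 339 assays with Benjamini-Hochberg adjustment, which called 0 of the 7 members, with a lowest adjusted p of 0.747, and 0 of 7 had an unadjusted p under 0.05. Of all assays it called 0.295%, and 30 had an unadjusted p under 0.05. This test uses a split of the samples that the ligated against control choice of members did not use, but with 3 samples in each cell its SE was 0.34 to 0.63 for the 5 members detected everywhere.

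**Figure D4:**
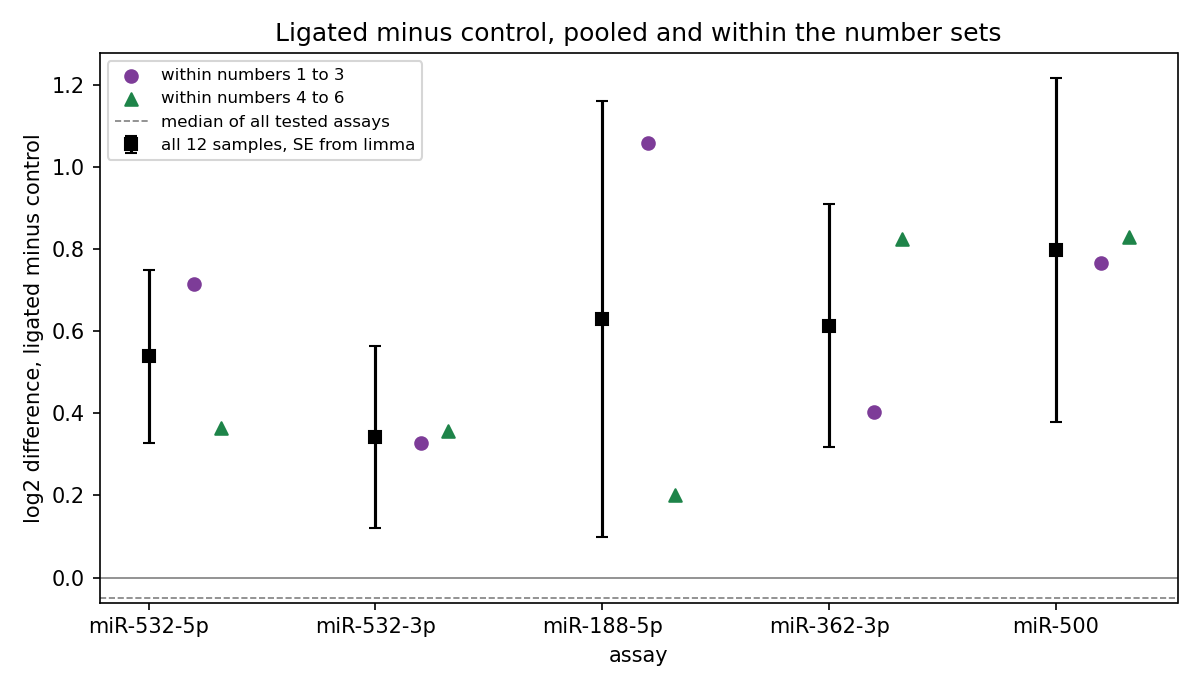
Log2 difference, ligated minus control, for the 5 members detected in every artery. Squares show all 12 samples with the SE from limma, circles the difference within numbers 1 to 3, triangles that within numbers 4 to 6, and the dashed line the median of all tested assays at -0.05. All points lie above 0, in a contrast that was known when the cluster was chosen. The 2 sets lie nearest together for miR-532-3p and miR-500.

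Over all 12 arteries 0 of the 7 members had groups that did not overlap with ligated higher, where 4.72% of all tested assays had. Within numbers 1 to 3 the groups separated with ligated higher for 2 of 7, miR-500 and miR-501-3p, where 11.8% of all assays did so. For miR-501-3p this counts every control artery of the set at the limit. Within numbers 4 to 6 the groups separated with ligated higher for 5 of 7, where 29.2% of all assays did so. The 5 were miR-362-3p, miR-500, miR-501-5p, miR-532-3p and miR-532-5p, and for miR-501-5p this counts control 6 at the limit. The ligated sample was higher in all 6 same-numbered comparisons for 3 of 7, miR-362-3p, miR-500 and miR-532-5p, where 11.8% of all assays were. These counts come from the contrast that was known when the cluster was chosen, and nothing is read from them.

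The counts of calls under other fits are given in the same way, as a description from which nothing is read. When the 2 number sets were entered as a block, miR-362-3p and miR-500 passed beside miR-501-3p, while 10.9% of all assays were called higher. The log2 differences then had smaller errors, 0.61 ± 0.17 (SE) for miR-362-3p and 0.80 ± 0.20 (SE) for miR-500. Within numbers 4 to 6 alone miR-362-3p and miR-500 passed, at 0.83 ± 0.20 (SE) and 0.83 ± 0.16 (SE), and 14.7% of all assays were called higher there. The closest 2 samples of the series, ligated 5 and ligated 6, lie in this set, with a mean absolute difference of 0.33 over the 283 miRNAs, and whether they are separate arteries is not shown. Without them only miR-501-3p passed among the members, beside 3.35% of all assays, and the median difference of the 7 was 0.60. In a fit with a replicate block miR-501-3p was again the only member to pass, beside 8.85% of all assays.

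The mean level of the 5 members detected everywhere ran from -1.33 to -0.52 in ligated and from -1.57 to -1.24 in control arteries. Of the 332 other assays tested, the 5 most like it over the 12 samples were miR-21* (Pearson r 0.894), miR-31 (0.887), miR-467a (0.886), miR-340-5p (0.866) and miR-155 (0.85), a miRNA of activated leukocytes. Spearman's rho for the 5 was 0.797 to 0.860. Without ligated 2 and ligated 3, the samples farthest from the median, r lay between 0.796 and 0.921. It was 0.85 to 0.92 within numbers 1 to 3 and 0.84 to 0.96 within numbers 4 to 6. With group means removed, r for these 5 assays fell to 0.509 to 0.736, and to -0.21 to 0.77 within numbers 4 to 6. Between members, with group means kept, r ran from -0.45 for miR-188-5p with miR-500 to 0.88 for miR-362-3p with miR-500. It was -0.77 and 0.83 for these pairs with group means removed, so the mean level joins members that ran opposite ways. With each group's mean removed, the 5 assays most like the members' mean level were miR-125a-3p (r 0.761), miR-101a (0.753), miR-31 (0.736), miR-152 (0.732) and miR-210 (0.701). miR-31 was the one assay in both lists. With group means removed, r for these 5 was 0.54 to 0.65 without ligated 2 and ligated 3, 0.72 to 0.95 within numbers 1 to 3, and -0.21 to 0.91 within numbers 4 to 6, where miR-31 and miR-210 were below 0. With the group means kept, r was 0.041 to 0.158 over the 12 samples for the 4 other than miR-31, -0.365 to -0.101 without ligated 2 and ligated 3, and -0.84 to -0.44 within numbers 4 to 6. All samples share the scaling and the group difference, and these values describe likeness and nothing more.

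Outside the cluster, RefSeq lists 2 mature miRNAs with a seed of the sequences searched, which did not include miR-532-5p. One is miR-329-3p of chromosome 12, which has the seed of miR-362-3p. The table has an assay labelled miR-329 with no arm, so its values are not tied to this sequence by the label.
miR-329-3p: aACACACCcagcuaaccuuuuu
The miR-329 assay had a lowest value, median and highest level of -5.24, -4.42 and -3.81 in ligated and -4.92, -4.03 and -3.27 in control arteries. The log2 difference was -0.39 ± 0.38 (SE), with an adjusted p of 0.610 in limma's whole-table fit, against 0.61 for miR-362-3p.

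A list of other miRNAs of the X chromosome was made by name, with earlier results of these data known, and need not be complete. It had 58 assays, of which 25 were tested. In the same limma fit 3 rose, 1 fell and 21 did not pass, with a median difference of 0.18, beside 7.37% of all assays higher, 5.01% lower and a median of -0.05. The 3 were miR-221 and miR-222, neighbours that promote smooth muscle growth, with log2 differences of 1.73 ± 0.40 (SE) and 1.57 ± 0.41 (SE), and miR-503, with 3.64 ± 1.03 (SE) and detection in 6 of 6 ligated and 4 of 6 control arteries. miR-224 fell by 1.09 ± 0.32 (SE).

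Markers of other cells moved between the groups as well. Of the 6 leukocyte miRNAs, all detected in all 12 samples, 4 rose and 0 fell, and their mean level ran from 3.23 to 4.30 in ligated and from 1.72 to 2.14 in control arteries. The 5 muscle miRNAs listed were miR-143, miR-145, miR-1, miR-133a and miR-133b. The first 3 fell, and the mean level of the 5 was 2.94 to 4.94 in ligated and 4.55 to 6.64 in control arteries. Over all assays tested, 7.37% were called higher and 5.01% lower. None of the 2 endothelial, 1 red blood cell, 2 neuronal and 6 epithelial miRNAs listed and tested passed. Their median differences were -0.13, -0.40, 0.58 and 1.24. miR-375, also found in epithelium but not on the list, was called lower, with a log2 difference of -3.75 ± 0.85 (SE). The part of these cells in the differences of the cluster was not tested.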

How the data were processed

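RNA was isolated with the mirVana kit, per the labels' protocols, and the deposited main table holds raw Ct values, per the file headers. Instrument and threshold were not given in the sources used here. A second, deposited processed table equals Ct less the average of U6 and snoRNA429 to within 5e-05 cycles over 513 assays. It was used as an alternative, and the separate run of 4 blank assays holds no member and was not used. Undetected wells were set to 35, the test took assays detected in 4 or more of the 6 samples of either group, and minus the scaled Ct was fitted with limma 3.58.1 in R 4.3.3 on group alone, calling adjusted p-values below 0.05. The fit was tested on simulated data. The number of samples limits the precision, and p-values measure only the spread between these 12 samples.

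Same-numbered samples deviated together from their group means, with r from 0.252 to 0.697 over 6 pairs, but across the sets r was -0.711 to -0.222. Only 4 of 6 ligated arteries had their highest r with the control of the same number. Of the control arteries, 2 of 6 had theirs with the ligated artery of the same number. The members, the lists and the tests were chosen with earlier results of these data known. Named miRNAs were all members, the 5 most like their mean level (with and without group means), those sharing a seed, and the X-linked and marker lists. miR-375 was named beside the epithelial list after seeing the data. Alternatives covered scaling, detection limit, undetected wells, filter, blocks, weights and left-out samples, and leaving out ligated 5 and 6 together was added after seeing the data.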

Additional observations from a re-analysis of the deposited data

Results flagged for a closer look

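miR-501-3p in ligated arteries had 1 sample far from the other 5. The gap between ligated 5, which did not amplify, and the nearest other ligated artery was 0.880 of the group's whole range, above Dixon's critical value for 6 samples. For normally distributed values chance passes that critical value in about 1 in 20 groups. That rate does not apply here, as the 0.880 rests on the level of -9.98 given to the undetected well. The check was also made for each tested member and group with at most 1 undetected well. In the same artery miR-362-3p and miR-501-5p had their highest ligated levels, -2.5 and -1.91.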

How the results depend on the processing

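All 7 members tested kept a higher mean in ligated arteries in every alternative that gave a value, 28 to 30 for each member, where miR-501-3p entered only through its ligated wells. The median difference of the 7, 0.63, was 0.43 scaled to U6 and snoRNA429 and on the deposited table, and 0.55 to 0.79 when 1 sample was left out. It was 1.62 with raw Ct, where the median of all assays moved to 0.93. The number of members called higher was 1 in the main analysis (7.37% of all assays). It was 4 with raw Ct (16.8% of all) and 4 with array weights (15% of all). It was 3 with the number sets as a block (10.9% of all) and 2 within numbers 4 to 6 (14.7% of all). It was 0 with undetected wells left missing (6.51% of all) and 0 with assays detected in all 12 samples only (7.07% of all). Both leave miR-501-3p without a value. The number stayed at 1, always miR-501-3p, whichever 1 sample was left out, while 4.42% to 7.69% of all assays were called higher. It was also 1 in the fit with a replicate block (8.85% of all). These counts come from the contrast known when the members were chosen, and nothing is read from them. Pairing the numbers changed no member's call. No member was called lower in any alternative, where 0% to 15% of all assays were called lower. The test between the sets called 0 members in each of its alternatives. With 6 arteries a group and a fit on group alone, the SE of 0.21 to 0.53 for members detected everywhere limits which differences the test can pass. With the number sets as a block the SE of each of these members was smaller. Scaled to U6 and snoRNA429 the SE of these members was 0.35 to 0.88, larger than in the main fit for all but miR-188-5p.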
